A study of Mus musculus with 22 samples.

Results

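The antioxidant target genes of the transcription factor Nrf2 were followed here as a set of 10 genes chosen by name: Gclc, Gclm, Slc7a11, Txnrd1, Srxn1, Prdx1, Prdx6, Nqo1, Hmox1 and Gsta4. All 10 were present among the 20668 genes measured in nuclei and among the 16304 measured in whole cells.

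The study asked which hypothalamic cell types respond to fibroblast growth factor 1 (FGF1), a peptide that lowers blood glucose for a long time after injection into the cerebral ventricle (icv) of diabetic rodents. All mice were male ob/ob mice, which lack leptin and are obese and diabetic, at 11 weeks of age. FGF1 mice received a single icv injection of 3 µg FGF1, and vehicle mice received the injection fluid alone and were pair-fed to the FGF1 group, so that restricted feeding is shared by all vehicle mice. Single-nucleus libraries came from the frozen hypothalamus of 3 FGF1 and 3 vehicle mice on Day 1 and of 2 FGF1 and 2 vehicle mice on Day 5, and single-cell libraries came from 6 FGF1 and 6 vehicle mice of a separate cohort on Day 5, from whose data the authors removed neurons. Each library was 1 mouse. The mouse was therefore the replicate throughout, and values for different cell types within a day came from the same mice. The genes are described in the 24965 nuclei by the cell type labels deposited with the data, and in the 54890 whole cells by cluster number, with a name given from marker genes.

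Nrf2, encoded by Nfe2l2, is held in the cytoplasm by Keap1, which marks it for degradation. Electrophiles and peroxides modify Keap1, and Nrf2 then accumulates in the nucleus, pairs with small Maf proteins and binds the antioxidant response element of its targets. In the brain the pathway is best known in astrocytes, which supply glutathione and its precursors to neurons. The 10 genes fall into 3 roles. Gclc and Gclm encode the catalytic and modifier subunits of glutamate-cysteine ligase, which makes the first intermediate of glutathione, and Slc7a11 encodes the cystine/glutamate antiporter xCT, which brings in the cystine. Txnrd1 (thioredoxin reductase), Srxn1 (sulfiredoxin, which repairs over-oxidised peroxiredoxins), Prdx1 and Prdx6 (peroxiredoxins, which reduce peroxides) serve the thiol peroxidase system. Nqo1 reduces quinones, Hmox1 breaks down heme, and Gsta4 conjugates glutathione to products of lipid peroxidation.

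On GRCm38 with the GENCODE M21 annotation, the genes of glutathione supply lie at chr9:77754535-77794485 on the plus strand (Gclc), chr3:122245557-122270732 plus (Gclm) and chr3:49892526-50443614 minus (Slc7a11). Those of the thiol system lie at chr10:82833951-82897712 plus (Txnrd1), chr2:152105516-152111376 plus (Srxn1), chr4:116685544-116700822 plus (Prdx1) and chr1:161240112-161251219 minus (Prdx6). Nqo1 lies at chr8:107388225-107403206 minus, Hmox1 at chr8:75093621-75100589 plus and Gsta4 at chr9:78182774-78209349 plus. Each value is for the whole gene and not for one exon. Slc7a11 overlaps the antisense gene Gm37854, which lies on the plus strand, and Prdx6 has a near-identical copy, Prdx6b. How the counting treated reads of those pairs was not examined.

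The core of the antioxidant response element, TGACNNNGC, was searched on both strands of the RefSeq promoter windows (GRCm38.p6, 250 bases before to 50 bases after each annotated start), because Nrf2 binds its targets at this element. Windows were found for 6 members (Gclm, Nqo1, Prdx1, Slc7a11, Srxn1 and Txnrd1). The core stood in at least 1 window of 4 of these 6, against 3781 of all 27025 genes with a window (14.0%), and by window in 4 of 8 against 4071 of 32851 (12.4%). The 4 stretches that hold it are given 5′ to 3′ on the plus strand, with the core, here in its reverse orientation, in capitals.
Srxn1, chr2:152105542-152105570: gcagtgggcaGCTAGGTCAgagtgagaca
Gclm, chr3:122245393-122245461: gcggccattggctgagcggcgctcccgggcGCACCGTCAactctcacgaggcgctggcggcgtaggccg
Prdx1, chr4:116685436-116685504: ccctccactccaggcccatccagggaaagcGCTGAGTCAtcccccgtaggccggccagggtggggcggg
Txnrd1, chr10:82859084-82859152: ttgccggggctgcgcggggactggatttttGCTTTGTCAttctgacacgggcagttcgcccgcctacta
Counted from the annotated start, the first base of the core was at position -134 in Gclm, -133 in Prdx1, -92 in Txnrd1 and 28 in Srxn1. The Prdx1 core also holds TGACTCA, the recognition sequence of AP-1, as did 149 (3.66%) of the 4071 windows with a core. Such a match is a description of the sequence and says nothing of binding. The windows of Slc7a11 and Nqo1 did not contain these letters.

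Depth set what could be seen. Libraries held 2721087 to 16345981 unique molecular identifiers (UMIs, counts of captured RNA molecules) in nuclei and 2652897 to 11866269 in whole cells. The members' totals over all nuclei ran from 194 UMIs for Hmox1, seen in 0.717% of nuclei, to 18269 for Prdx1, seen in 42.2%. In whole cells they ran from 1067 UMIs for Srxn1 (1.90% of cells) to 118866 for Prdx6 (57.6%). UMIs were summed per mouse and cell type and are given as CPM (the counts scaled to a common library size), so fewer contributing cells and less RNA per cell cannot be told apart. Day 1 FGF1 libraries had lower median UMIs per nucleus (2029 to 2816) than vehicle libraries (3178.5 to 3776), and their part in the Day 1 results was not tested. The labels were checked against markers that were at least 2-fold higher than in all other barcodes. Nuclei labelled astrocytes met 6 of 6 astrocyte markers and those labelled ependymal cells 5 of 5 ependymal markers. Nuclei labelled tanycytes, the glia that line the floor of the third ventricle, met 6 of 8 tanycyte markers, and they also met all 6 astrocyte markers and 2 of 5 ependymal markers.

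In vehicle mice the 10 genes were spread unevenly over the 16 whole-cell clusters that could be measured (mean ± SD over 6 mice unless stated). Prdx6 was highest in the tanycyte clusters, at 4660 ± 480 CPM in cluster 7, 4296 ± 625 CPM in cluster 10 and 2170 ± 142 CPM in cluster 0, followed by ependymal cells at 1085 ± 82 CPM and astrocyte cluster 4 at 999 ± 133 CPM. Clusters 7 and 10 overlapped, as did ependymal cells and cluster 4, whereas cluster 10 against cluster 0 and cluster 0 against ependymal cells did not. Prdx6 was also among the 10 genes that most separated cluster 7 from the other cells, so its level there is not independent of how the cluster is described.

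Gsta4 was likewise highest in tanycyte clusters 7 (422 ± 80 CPM) and 10 (404 ± 88 CPM), which overlapped each other and lay above the next cluster, endothelial cells at 198 ± 17 CPM. Gclc was highest in ependymal cells (156 ± 13 CPM), with no overlap with the next cluster. Gclm was highest in tanycyte clusters 7 and 10 and oligodendrocyte cluster 11, at 178, 159 and 154 CPM, whose ranges overlapped. Slc7a11 was carried by vascular leptomeningeal cells (934 ± 957 CPM, n = 4), astrocyte clusters 4 (508 ± 137 CPM) and 1 (412 ± 75 CPM) and tanycyte cluster 0 (371 ± 99 CPM), neighbours that did not differ beyond their spread.

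Hmox1 was a gene of macrophages (267 ± 61 CPM, n = 4) and microglia (161 ± 61 CPM), which overlapped, and it stood at 14.9 ± 4.5 CPM in astrocyte cluster 1. Nqo1 was highest in ependymal cells at 48.6 ± 13.7 CPM. Prdx1 was present in every cluster, from 389 ± 59 CPM in ependymal cells to 1110 ± 330 CPM in pericytes. Txnrd1 and Srxn1 were low everywhere, with means of at most 92 CPM (vascular leptomeningeal cells, SD 134) and 22.5 CPM (oligodendrocyte precursors, SD 8.6). In Day 1 nuclei of vehicle mice (n = 3), Prdx6 was again highest in tanycytes at 1362 ± 418 CPM, with no overlap with ependymal cells at 766 ± 149 CPM, and Gclc was highest in ependymal cells at 347 ± 121 CPM, a range that overlapped the next type. Values of nuclei and of cells were scaled separately and are not compared with each other.

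**Figure D1:**
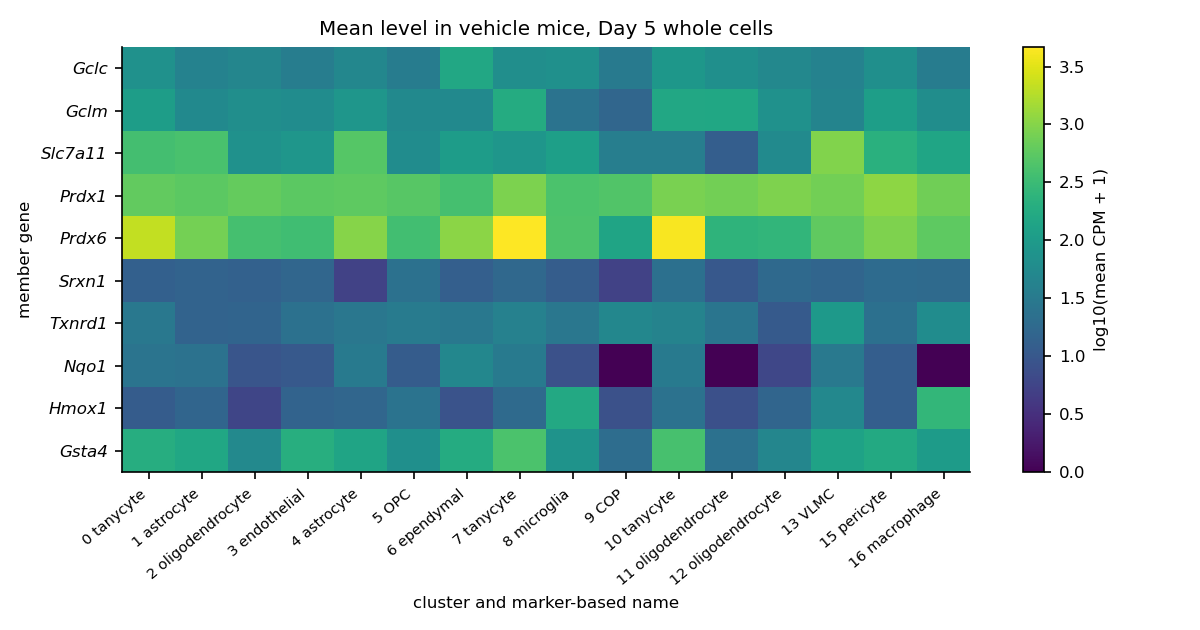
Heatmap of log10(mean CPM + 1) in vehicle mice for the 10 genes (vertical axis) in 16 whole-cell clusters on Day 5 (horizontal axis, cluster number and name). Brighter fields are higher levels. Prdx6 and Gsta4 are brightest in tanycyte clusters 7 and 10, Gclc in ependymal cells, and Hmox1 in macrophages and microglia.

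Which genes share these distributions was described by Pearson's correlation of log2(mean CPM + 1) over the 16 clusters, among 11998 genes and with all clusters drawn from the same libraries. The gene closest to Prdx6 was Nnat (r = 0.97), to Gclc the ciliogenesis factor Foxj1 (r = 0.92), to Hmox1 Il16 (r = 0.94), to Slc7a11 Kcnn2 (r = 0.92) and to Gsta4 another glutathione transferase, Mgst1 (r = 0.92). Prdx1 was closest to Vamp2 (r = 0.91), and Gclm and Txnrd1 to Flywch1 and Med14 (r = 0.88 each). Nqo1 and Srxn1 averaged 16.9 and 13.9 CPM over the clusters, below the mean of 20 CPM required of a member, and were not ranked.

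On Day 1, the clearest differences among the 10 genes lay in tanycytes, where Prdx6 was lower and Srxn1 was seen almost only after FGF1. Differences were tested per cell type with edgeR's quasi-likelihood test on the summed UMIs, two-sided and adjusted by Benjamini-Hochberg over all genes tested in that type, with an adjusted p below 0.05 called. Over 18 cell types 57 pairs of a member and a type passed the low-count filter, covering 9 of the 10 members. Of these 1 was called, and it was lower after FGF1, and 4 had an unadjusted p below 0.05. Over all genes, 1.05% of 72292 tests were called, 0.653% higher and 0.393% lower, and 5871 had an unadjusted p below 0.05. The median log2 fold change over the 57 pairs was 0.21, where that over all genes ranged from -0.05 to 0.03 among types. By type the members' median was 0.41 in tanycytes, 0.19 in astrocytes and -0.44 in ependymal cells.

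Prdx6 in tanycytes stood at 578, 494 and 201 CPM in FGF1 mice 1, 2 and 3 and at 1383, 1769 and 933 CPM in vehicle mice 1, 2 and 3. All FGF1 mice were below all vehicle mice, and the level fell by 1.65 ± 0.45 (SE) on the log2 scale (edgeR adjusted p = 0.038). In tanycytes 9.14% of all genes tested were called. The call was lost on leaving out FGF1 mouse 2 or 3 or vehicle mouse 1 or 2, at log2 changes of -1.90 to -1.37 over the 6 omissions and edgeR adjusted p of 0.0857 to 0.149 where lost. It was also lost with at least 30 nuclei per mouse (0.110) and with the deposited batch as a block (0.144), and it was kept by DESeq2 (0.0149). Each group's nuclei were few, 119, 43 and 25 in FGF1 mice and 32, 35 and 20 in vehicle mice.

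The lower Prdx6 in tanycytes was not shared by astrocytes, in which it stood at 924, 477 and 354 CPM after FGF1 and at 427, 610 and 307 CPM after vehicle. These groups overlapped (log2 fold change 0.39 ± 0.58, edgeR adjusted p = 0.97), where 1.55% of all genes tested in astrocytes were called. The difference between the 2 cell types was itself tested, with the mouse as a block, and came to -2.06 ± 0.41 (edgeR adjusted p = 0.0231), the 1 call among 16 tests of members between tanycytes, astrocytes and ependymal cells. In that contrast 0.303% of all genes were called, and 0.419% over the 3 contrasts. It was lost on leaving out FGF1 mouse 1 or 3 or vehicle mouse 1 or 3 (edgeR adjusted p of 0.0805 to 0.367). Between tanycytes and ependymal cells the effect on Prdx6 differed by -1.26 ± 0.46, which missed the threshold (edgeR adjusted p = 0.25), and within ependymal cells it was -0.44 ± 0.31 (edgeR adjusted p = 0.36), where 19% of all genes tested were called.

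Markers of the cells moved alongside. In the same tanycyte sums the 8 tanycyte markers together ran from 939 to 1473 CPM after FGF1 and from 1399 to 2237 CPM after vehicle (1 of 5 tested called, Frzb, lower). The 5 ependymal markers ran from 83.7 to 144 CPM against 407 to 693 CPM (1 of 2 tested called, Dynlrb2, lower) and the 6 astrocyte markers from 954 to 1475 CPM against 1902 to 3217 CPM (0 of 5 tested called). Markers of committed oligodendrocyte precursors were higher in sum, at 132 to 201 CPM against 63.3 to 112 CPM (5 markers, 0 of 1 tested called, with Gpr17 at 0), and those of oligodendrocytes lower, at 151 to 260 CPM against 289 to 449 CPM (6 markers, 0 of 1 tested called), both without overlap. Smooth muscle markers ran without overlap from 25.1 to 64.2 CPM against 0 to 18.7 CPM (4 markers, none tested, with Acta2 at 0), and those of vascular leptomeningeal cells from 0 to 452 CPM against 0 to 27.1 CPM (5 markers, none tested). Microglia markers ran from 41.6 to 67.0 CPM against 53.8 to 103 CPM (5 markers, none tested, with Tmem119 at 0), and macrophage markers from 0 to 33.5 CPM against 0 to 36.1 CPM (6 markers, none tested, with Cd163, Lyve1 and Pf4 at 0). The part of these shifts in the tanycyte results was not tested.

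Srxn1, the sulfiredoxin gene, went the other way in tanycytes. It had 81, 24 and 2 UMIs in FGF1 mice 1, 2 and 3 (306, 201 and 33.5 CPM) and 0, 1 and 0 UMIs in vehicle mice (9.4 CPM in vehicle mouse 2). The groups did not overlap, and the pooled ratio was 65.9 with an exact 95% counting interval of 11.6 to 2626, which covers counting error only. The low-count filter had removed the gene, and without the filter the log2 fold change was 5.46 ± 0.81 (edgeR adjusted p = 1.52e-08), where 3.32% of all genes tested were called. The unadjusted edgeR p of that fit was 1.7e-11, where the fit with at least 30 nuclei gave 5.6e-06 at 5.53 ± 0.84. The p without the filter is therefore no measure of the spread between 3 mice per group and is a description only. In the alternative fits with the filter that it entered, it could do so only through the FGF1 group, so its edgeR adjusted p there, from 0.00053 without FGF1 mouse 3 to 0.0586 without vehicle mouse 1, is a description and no support. The log2 fold change in those fits ran from 4.79 without vehicle mouse 1 to 7.61 without vehicle mouse 2, where both remaining vehicle mice were at 0 and the fitted value depends on the prior count.

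Srxn1 was also above vehicle in all 3 FGF1 mice in astrocytes, at 67, 17 and 3 UMIs (72.9, 45.3 and 20.0 CPM) against 2, 9 and 1 UMIs (10.2, 17.4 and 6.5 CPM). Without the filter this came to 2.01 ± 0.62 on the log2 scale and missed the threshold (edgeR adjusted p = 0.092). In ependymal cells it had 5, 1 and 3 UMIs against 0, 1 and 0, a ratio of 8.64 with a counting interval of 1.198 to 379 and overlapping groups. Oligodendrocytes held 11, 9 and 1 against 1, 4 and 1 UMIs (edgeR adjusted p = 0.65 without the filter). The tanycyte and astrocyte effects differed by 3.51 ± 1.18 without the filter (edgeR adjusted p = 0.515), so a difference between them was not called. In the astrocyte nuclei endothelial markers summed to 111 to 240 CPM after FGF1 against 38.7 to 78.3 CPM (5 markers, 1 of 1 tested called, Flt1, higher). Without a call, smooth muscle markers stood at 53.4 to 68.6 CPM against 11.6 to 15.3 CPM (4 markers, none tested), those of committed oligodendrocyte precursors at 198 to 256 CPM against 132 to 150.2 CPM (5 markers, 1 tested) and those of microglia at 84.9 to 87.8 CPM against 50.9 to 65.3 CPM (5 markers, none tested), and those of neurons were lower, at 808 to 1302 CPM against 1307 to 2041 CPM (0 of 4 tested called). Their part in the astrocyte values and in the interactions was not tested.

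**Figure D2:**
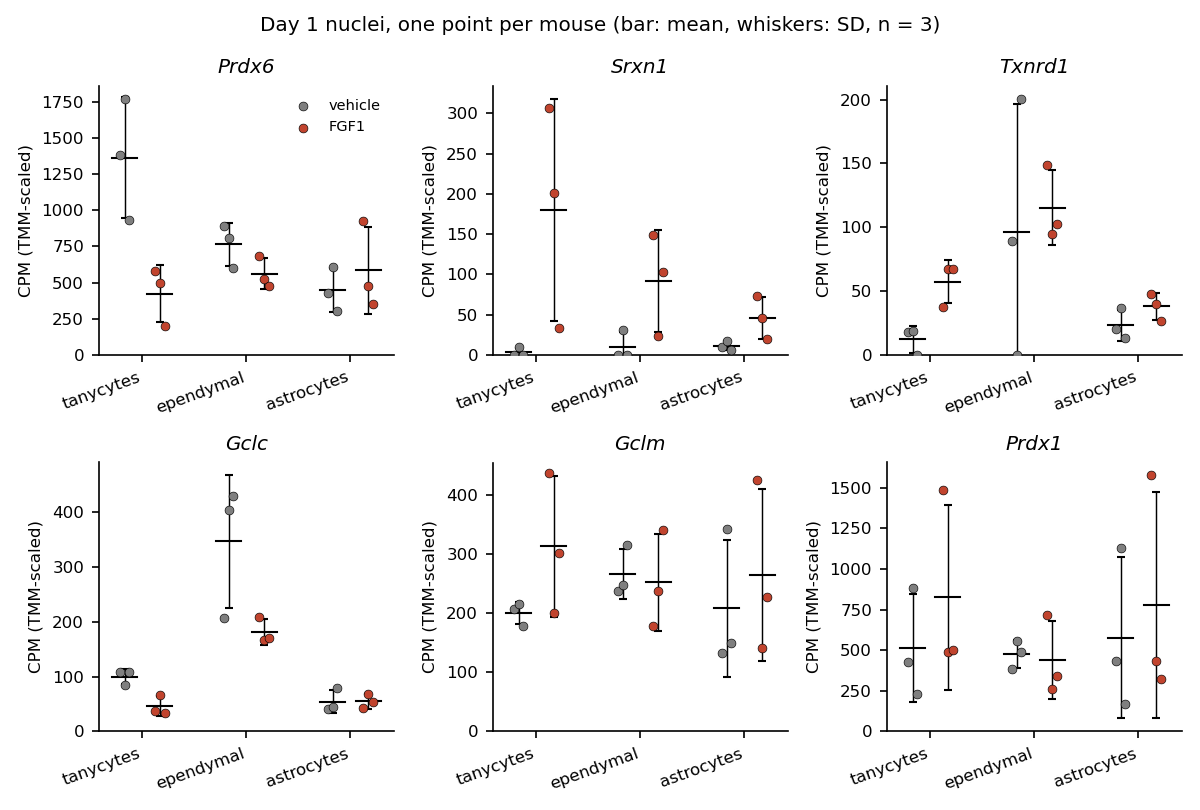
CPM of 6 genes in nuclei on Day 1 by cell type, with 1 point per mouse, bars at the mean and whiskers at ± SD (n = 3 FGF1 and 3 vehicle mice). In tanycytes Prdx6 lies at 201 to 578 CPM after FGF1 and 933 to 1769 CPM after vehicle, and Srxn1 at 33.5 to 306 CPM against 0 to 9.4 CPM.

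Of the other thiol genes in tanycytes, Txnrd1 had 10, 8 and 4 UMIs after FGF1 (37.8, 67.0 and 67.0 CPM) and 2, 2 and 0 after vehicle (18.1, 18.7 and 0 CPM). The groups did not overlap, and without the filter the log2 fold change of 1.84 ± 0.84 missed the threshold (edgeR adjusted p = 0.29). Prdx1 stood at 1485, 486 and 502 CPM against 425, 880 and 233 CPM, with overlap (0.69 ± 0.55, edgeR adjusted p = 0.49). FGF1 mouse 1 and vehicle mouse 2, the highest of their groups, were also the libraries with the highest shares of ribosomal protein RNA (2.55% and 1.55%), whose part in this was not tested.

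Gclm stood in tanycytes at 438, 201 and 301 CPM after FGF1 and at 208, 215 and 179 CPM after vehicle, with FGF1 mouse 2 inside the vehicle range (0.65 ± 0.38, edgeR adjusted p = 0.33). Gclc, its partner, had 10, 8 and 2 UMIs (37.8, 67.0 and 33.5 CPM) against 12, 9 and 6 (108, 84.2 and 108 CPM). All FGF1 mice were below all vehicle mice for Gclc, but without the filter the log2 fold change of -1.04 ± 0.57 missed the threshold (edgeR adjusted p = 0.45). Slc7a11 was uneven among FGF1 mice, at 132, 75.4 and 469 CPM against 154, 178 and 215 CPM (0.17 ± 0.57, edgeR adjusted p = 0.90).

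The remaining members were near the limit of detection in tanycytes. Gsta4 had 20, 4 and 3 UMIs against 12, 21 and 3, Nqo1 3, 1 and 2 against 6, 3 and 1, and Hmox1 4 against 3 in all, and none was called without the filter. In ependymal cells Nqo1 had 1 UMI in the FGF1 mice and 6 in the vehicle mice (0 to 29.8 CPM against 57.3 to 62.2 CPM). In astrocytes Nqo1 had 13, 2 and 1 UMIs (14.1, 5.3 and 6.7 CPM) against 6, 15 and 5 (30.5, 29.0 and 32.6 CPM), with no overlap between groups. That difference missed the threshold (log2 fold change -1.46 ± 0.69 without the filter, edgeR adjusted p = 0.58). Hmox1 in astrocytes had 58, 13 and 2 UMIs against 2, 9 and 1, and FGF1 mouse 3, at 13.4 CPM, lay within the vehicle range of 6.5 to 17.4 CPM (1.74 ± 0.64 without the filter, edgeR adjusted p = 0.26). Outside these types, Gclc in microglia stood at 38.6 to 51.2 CPM against 84.3 to 166 CPM without overlap (-1.19 ± 0.43, edgeR adjusted p = 0.88).

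**Figure D3:**
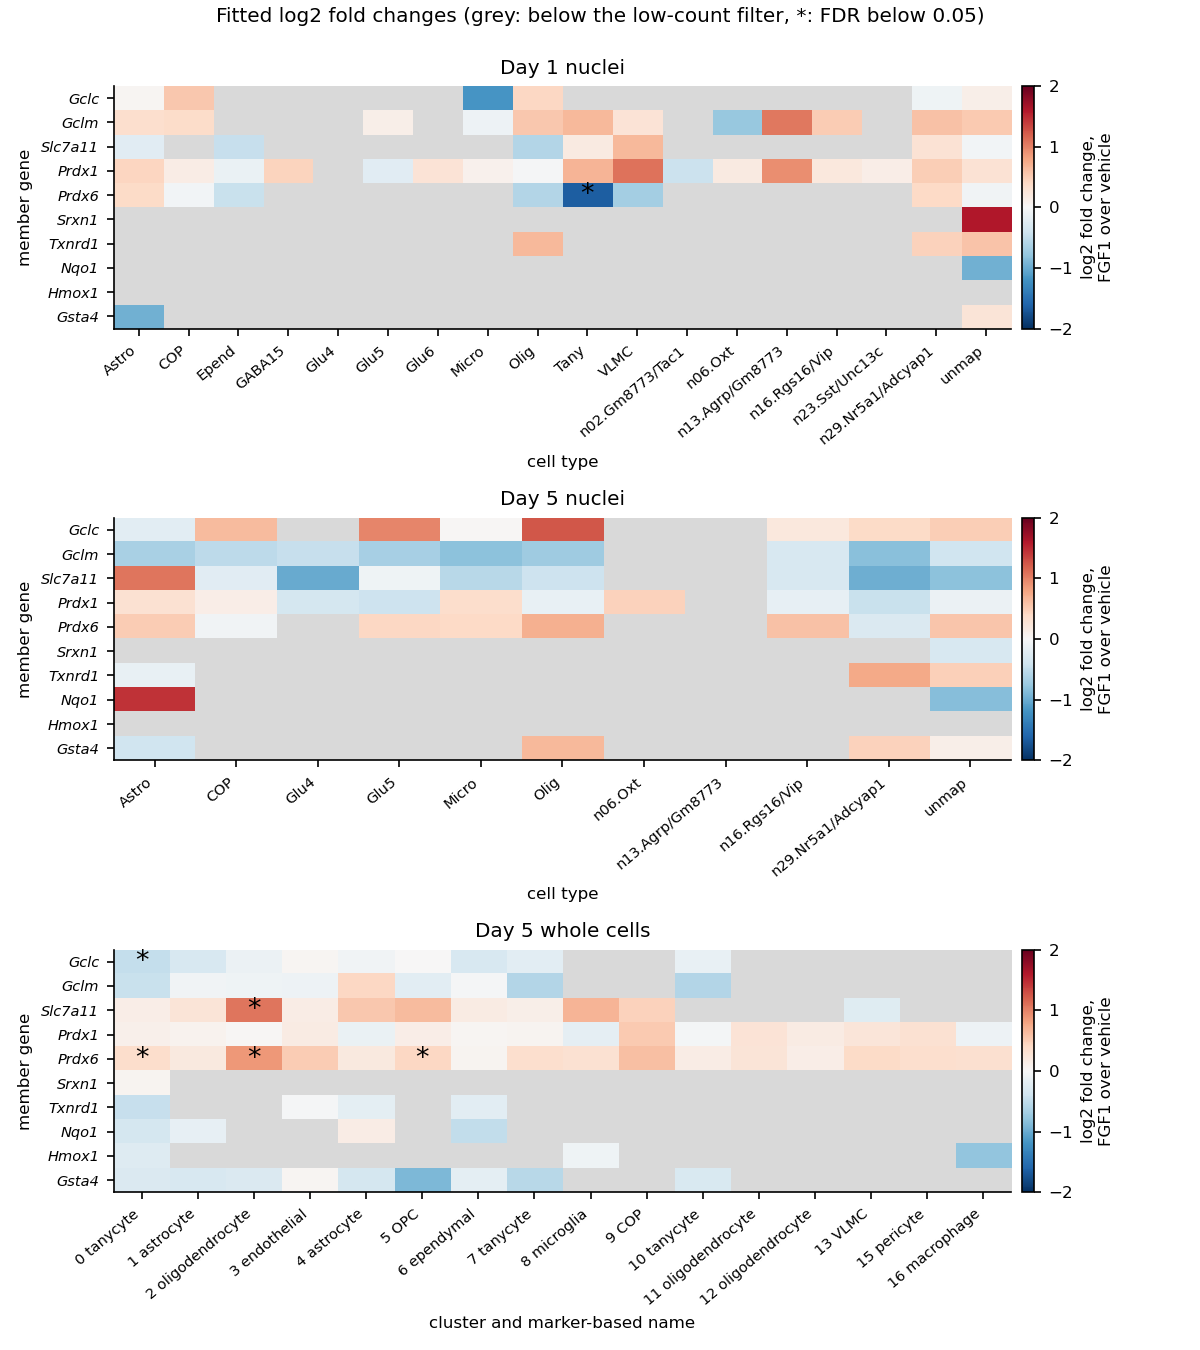
Fitted log2 fold changes (FGF1 over vehicle) of the 10 genes (vertical axis) by cell type or cluster (horizontal axis) in Day 1 nuclei, Day 5 nuclei and Day 5 whole cells, on a colour scale from -2 to 2. Grey fields did not pass the low-count filter, and asterisks mark an edgeR adjusted p below 0.05: 1 on Day 1, 0 in Day 5 nuclei and 5 in Day 5 cells.

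The rest of the pathway was described by 4 lists. The regulators (10 genes, among them Nfe2l2, Keap1, Bach1 and the small Maf genes) gave 0 calls of 42 tests on Day 1, 3 of them with an unadjusted p below 0.05. Other Nrf2 targets (26 genes, Gpx2 not in the nuclei) gave 4 calls of 99, all higher, with a median log2 fold change of 0.20. Other peroxide, superoxide and thiol enzymes (17 genes) gave 1 higher of 105, with a median of 0.19, and targets of Atf4, a factor that also drives Slc7a11 (10 genes), gave 0 of 27, none of which had an unadjusted p below 0.05.

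Of the 5 calls, 3 were in tanycytes, where 9.14% of all genes were called against 1.05% over all types. Akr1b8, an aldo-keto reductase of a family of close copies whose reads are uncertain to separate, was at 100 to 208 CPM in the 3 FGF1 mice, from 79 UMIs, and at 0 in all 3 vehicle mice. It was at least 16.2-fold higher against a floor of 3 counts over the vehicle group (edgeR adjusted p = 0.0019), and it was called in all 6 omissions of a mouse, while among nuclei within the study's limits on mitochondrial and ribosomal UMIs it did not pass the low-count filter. With vehicle at 0 it could pass that filter only through the FGF1 group, so these calls are a description and no support. In astrocytes it stood at 47.9 to 60.1 CPM against 0 to 6.5 CPM (4.31 ± 0.80, edgeR adjusted p = 0.025), from 53, 18 and 9 UMIs against 1, 0 and 1. There too it could pass the filter only through the FGF1 group, so the p is a description. It passed in 3 of the 6 omissions and was lost without vehicle mouse 1 (0.104) and with the batch as a block (0.0852).

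Txn1, which encodes thioredoxin, the substrate of Txnrd1, stood in tanycytes at 193 to 812 CPM against 71.8 to 140 CPM without overlap (2.05 ± 0.54, edgeR adjusted p = 0.033). The 812 CPM were those of FGF1 mouse 1, the library with the highest ribosomal share, and over the 6 omissions the log2 fold change ran from 1.10 (without that mouse) to 2.47. Leaving out FGF1 mouse 1 or vehicle mouse 1, 2 or 3 lost the call (0.0602 to 0.181), as did the replicate block (0.061), the batch block (0.129), at least 30 nuclei (0.0676) and the mitochondrial and ribosomal limits (0.0755). Gpx1, a glutathione peroxidase, stood at 167 to 329 CPM against 72.3 to 108 CPM (1.56 ± 0.42, edgeR adjusted p = 0.036) and lost the call without FGF1 mouse 1 or 2 or vehicle mouse 1, 2 or 3 (0.063 to 0.221), with the replicate block (0.077), the batch block (0.115) and the mitochondrial and ribosomal limits (0.129), and by DESeq2 (0.0698). The groups did not overlap for either gene. Vehicle mice held 11, 15 and 4 UMIs of Txn1 and 8, 8 and 6 of Gpx1. Neither gene could pass the low-count filter without the FGF1 mice, so both p are a description and no support. The last call was Fth1, the ferritin heavy chain, higher in vascular leptomeningeal cells (2.49 ± 0.68, edgeR adjusted p = 0.018), at 991 and 4956 CPM in 2 FGF1 mice against 290 to 694 CPM in 3 vehicle mice. It was lost without FGF1 mouse 1 or vehicle mouse 1, 2 or 3 (0.164 to 0.501), with the replicate block (0.33) or batch block (0.996) and without the filter (0.309), and the log2 fold change ran from 0.91 to 3.18 over the omissions.

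**Figure D4:**
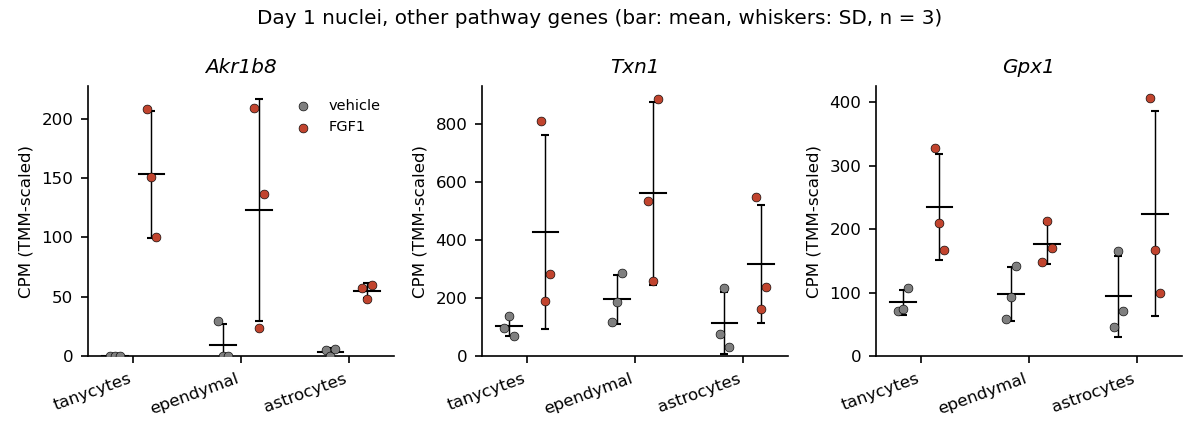
CPM of Akr1b8, Txn1 and Gpx1 in nuclei on Day 1 by cell type, with 1 point per mouse, bars at the mean and whiskers at ± SD (n = 3 per group). In tanycytes all 3 FGF1 mice lie above all 3 vehicle mice for each gene, and Akr1b8 is at 0 in every vehicle mouse.

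In Day 5 nuclei, none of the 10 genes was called. The 54 tested pairs over 11 types, covering 9 members, gave 0 calls by edgeR, and 6 had an unadjusted p below 0.05. Over all genes edgeR called 0.288% of 71541 tests (0.0769% higher and 0.211% lower), and 6151 had an unadjusted p below 0.05. DESeq2 gave 1 call of a member, where it called 0.175% of all genes. The members' median log2 fold change was -0.13. Tanycytes and ependymal cells had too few nuclei for a test, so the Day 1 differences in Prdx6 and Srxn1 could not be followed up in nuclei of those types.

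The call by DESeq2 was Slc7a11 in astrocytes, at 586 and 592 CPM in the FGF1 mice against 275 and 289 CPM in the vehicle mice. The groups were apart, and edgeR gave 1.07 ± 0.38 with an adjusted p of 0.21. Nqo1 in astrocytes stood at 22.5 to 48.2 CPM against 0 to 17.9 CPM (1.44 ± 0.60, edgeR adjusted p = 0.30). In oligodendrocytes Gclc stood at 43.7 to 49.5 CPM against 17.5 to 25.2 CPM (1.24 ± 0.42, edgeR adjusted p = 0.48) and Gclm at 55.0 to 78.4 CPM against 95.6 to 126 CPM (-0.71 ± 0.30, edgeR adjusted p = 0.63), opposite directions in the same nuclei that both missed the threshold.

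Whether the effect of FGF1 differed between the days was tested by the interaction in nuclei. None of 59 member tests was called by edgeR, and 5 had an unadjusted p below 0.05. Over all genes 0.00784% of 76499 tests were called, and 3436 had an unadjusted p below 0.05. The largest among astrocytes were Nqo1, whose change was 3.05 ± 0.96 higher on Day 5 than on Day 1 (edgeR adjusted p = 0.44), and Srxn1, whose change differed by -2.42 ± 1.05 (edgeR adjusted p = 0.60). Over the 4 other lists there were 3 calls on Day 5, of Sod2 once and Fth1 in both other cases, each lower: 2 of 101 tests of other Nrf2 targets and 1 of 95 of the peroxide, superoxide and thiol enzymes, where 0.288% of all genes were called. Sod2, the mitochondrial superoxide dismutase, stood at 20.0 to 24.6 CPM against 42.4 to 135 CPM in astrocytes (-2.16 ± 0.46, edgeR adjusted p = 0.032) and lost the call without FGF1 mouse 37 or 45 or vehicle mouse 28 (0.238 to 0.786), at log2 changes of -2.50 to -0.84 over the omissions, with the batch block (0.0805) and within the mitochondrial and ribosomal limits (0.0949). Both Fth1 calls, in committed oligodendrocyte precursors and in a glutamatergic type, were lost with the batch block (edgeR adjusted p = 0.051 and 0.653). The second was also lost by DESeq2 (adjusted p = 0.868), which gave no adjusted p for the first or for Sod2. Without vehicle mouse 28 the log2 changes of Fth1 went from -2.35 to -0.69 and from -3.09 to -0.66. The regulators gave 0 calls of 38 tests and the Atf4 targets 0 of 31.

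In whole cells on Day 5, with 6 mice per group, Prdx6 was higher after FGF1 in 3 clusters, Slc7a11 was higher in 1 and Gclc was lower in 1. These were the 5 calls among 82 pairs over 16 clusters, where 1.75% of all genes were called (0.854% higher and 0.896% lower). An unadjusted p below 0.05 was found in 22 of the 82 pairs and in 9021 of 67441 tests over all genes. The median log2 fold change over the 82 pairs was 0.04. Clusters were unevenly made up of the groups: FGF1 mice gave 57.4% of the cells of tanycyte cluster 0, 82.2% of tanycyte cluster 7, 16.2% of astrocyte cluster 1, 83.0% of astrocyte cluster 4 and 24.3% of oligodendrocyte cluster 2. Values within a cluster are therefore set beside those of merged classes.

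In tanycyte cluster 0, which met 4 of 8 tanycyte markers, Gclc ran from 42.6 to 55.9 CPM (median 47.4) after FGF1 and from 59.9 to 88.1 CPM (median 67.5) after vehicle. Every FGF1 mouse was below every vehicle mouse, and Gclc fell by 0.48 ± 0.13 (edgeR adjusted p = 0.031), where 5.27% of all genes were called. The call was lost without FGF1 mouse 7 or 21 or vehicle mouse 20, 27 or 29 (0.0611 to 0.107), by DESeq2 (0.0513) and without the low-count filter (0.0505). Prdx6 in the same cluster ran from 2129 to 3296 CPM (median 2737) against 2021 to 2347 CPM (median 2130), with overlap, and rose by 0.35 ± 0.10 (edgeR adjusted p = 0.038). This call was lost without any 1 of FGF1 mice 7, 10, 21, 28 and 36 or vehicle mice 20, 22, 25, 27 and 29 (0.0537 to 0.137), and also with the batch block (0.0600) and within the mitochondrial and ribosomal limits (0.0568). The members' median in the cluster was -0.27, against 0.003 over all genes. In the same sums the 6 astrocyte markers ran from 1592 to 2545 CPM after FGF1 and from 3168 to 3952 CPM after vehicle (3 of 6 tested lower) and the 8 tanycyte markers from 1740 to 2319 CPM against 1548 to 2006 CPM (2 of 6 tested higher). Markers of committed oligodendrocyte precursors ran without overlap from 61.3 to 99.6 CPM against 39.5 to 61.2 CPM (5 markers, 1 of 1 tested called, Fyn, higher), and those of neurons from 114 to 252 CPM against 134 to 352 CPM (4 markers, 1 of 3 tested called, Syt1, lower). The part of these markers in the Gclc and Prdx6 results was not tested.

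The other tanycyte clusters held no call. In cluster 7 (5 FGF1 mice) Prdx6 ran from 5232 to 6670 CPM against 4181 to 5313 CPM (0.33 ± 0.12, edgeR adjusted p = 0.13). Gclm ran from 94.5 to 131 CPM against 122 to 218 CPM in that cluster (-0.59 ± 0.17, edgeR adjusted p = 0.070) and Gsta4 from 165 to 328 CPM against 315 to 543 CPM (-0.56 ± 0.16, edgeR adjusted p = 0.058). With all tanycyte clusters merged, 0 members were called, where 5.08% of all genes were. Prdx6 then stood at 0.43 ± 0.14 (edgeR adjusted p = 0.067), Txnrd1 at -0.52 ± 0.17 (0.076), Gclm at -0.42 ± 0.14 (0.085) and Gclc at -0.37 ± 0.13 (0.096). With the batch as a block, Prdx6 and Gclm passed the threshold (0.039 and 0.034), and the share of all genes called in that fit is not given here. Srxn1 was at a log2 fold change of 0.10 in the merged tanycytes on Day 5.

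In oligodendrocyte cluster 2, Prdx6 ran from 449 to 1005 CPM (median 630) after FGF1 and from 331 to 501 CPM (median 371) after vehicle. The groups overlapped at vehicle mouse 29, and Prdx6 rose by 0.86 ± 0.18 (edgeR adjusted p = 0.029), where 0.904% of all genes were called. The call was lost without FGF1 mouse 21 or vehicle mouse 20, 22, 25, 27 or 35 (0.0530 to 0.0853). Slc7a11 ran from 87.5 to 308 CPM (median 157) against 44.9 to 89.9 CPM (median 72.3), overlapping slightly, and rose by 1.08 ± 0.24 (edgeR adjusted p = 0.041). That call was lost without FGF1 mouse 6, 7 or 10 or vehicle mouse 20, 22, 25 or 27 (0.0628 to 0.105) and within the mitochondrial and ribosomal limits (0.0539).

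Markers of other glia moved with these results. The 8 tanycyte markers summed to 245 to 608 CPM in FGF1 mice against 61 to 186 CPM in vehicle mice of cluster 2 (1 of 4 tested called, Crym, higher), and the 5 ependymal markers to 174 to 492 CPM against 85 to 194 CPM (Dynlrb2 called, higher). The 6 astrocyte markers overlapped, at 1682 to 2407 CPM against 1628 to 2845 CPM (Aqp4 called, higher). Markers of committed oligodendrocyte precursors ran from 126 to 225 CPM against 107 to 119 CPM (1 of 2 tested called, Fyn, higher) and those of neurons from 70.2 to 194 CPM against 209 to 376 CPM (0 of 3 tested called). In vehicle mice Prdx6 was higher in every tanycyte and astrocyte cluster than in cluster 2, and Slc7a11 was higher in tanycyte cluster 0 and in both astrocyte clusters. The part of RNA from those cells in the cluster 2 results was not tested. When all oligodendrocyte clusters were merged, Prdx6 and Slc7a11 stood at 0.34 and 0.45 and missed the threshold (edgeR adjusted p = 0.11 and 0.16).

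In oligodendrocyte precursors (cluster 5), Prdx6 ran from 393 to 551 CPM (median 477) against 303 to 415 CPM (median 365), with overlap, and rose by 0.41 ± 0.12 (edgeR adjusted p = 0.042). In that cluster 2.39% of all genes were called. The Prdx6 call was lost without FGF1 mouse 6, 7, 21, 28 or 36 or vehicle mouse 22 or 25 (0.0567 to 0.118) and without the low-count filter (0.0682). Markers called in that cluster were all lower: C1ql1 of the precursors themselves (-0.60, 1 of 5 tested), Neu4 of committed precursors (-0.43, 1 of 3) and Snap25 of neurons (-0.64, 1 of 3). Tanycyte markers summed to 140 to 253 CPM after FGF1 against 98 to 200 CPM after vehicle, with 0 of 2 tested called, and the part of these markers was not tested. Near the threshold were Prdx6 in endothelial cells (0.51 ± 0.13, edgeR adjusted p = 0.052) and Slc7a11 in astrocyte cluster 4, which ran from 657 to 922 CPM against 334 to 718 CPM (0.53 ± 0.14, edgeR adjusted p = 0.057). With the batch as a block, 4 further pairs were called: Gclm in tanycyte clusters 0 (-0.47) and 7 (-0.62), Prdx6 in endothelial cells (0.53) and Gsta4 in oligodendrocyte precursors (-0.97), at edgeR adjusted p of 0.043, 0.0498, 0.032 and 0.023. The share of all genes called with the batch block is not given here, so these calls cannot be set beside it. Without the low-count filter Slc7a11 in cluster 4 was 0.68 and was called (edgeR adjusted p = 0.00053). In that fit 0.537% of all genes were called. The median log2 fold change over all genes there was 0.155, against 0.0005 with the filter.

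With clusters of 1 name merged, 5 of 64 pairs over 11 classes were called (3 higher and 2 lower), where 4.18% of all genes were, and 4 of them lay in astrocytes. There 12.6% of all genes were called. Over the 11 classes, 21 of the 64 pairs had an unadjusted p below 0.05, as did 9960 of 56173 tests over all genes. Gclm in merged astrocytes ran from 71.2 to 108 CPM (median 82.8) after FGF1 and from 47.0 to 63.3 CPM (median 55.7) after vehicle. All 6 FGF1 mice were above all 6 vehicle mice, and Gclm rose by 0.65 ± 0.13 (edgeR adjusted p = 0.0011). Slc7a11 ran from 521 to 817 CPM (median 660) against 348 to 528 CPM (median 375), overlapping only slightly, and rose by 0.66 ± 0.12 (edgeR adjusted p = 0.00066).

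Gsta4 moved the opposite way in merged astrocytes, from 74.4 to 129.8 CPM (median 98.0) after FGF1 against 130.4 to 184 CPM (median 148). It fell by 0.55 ± 0.13 without overlap (edgeR adjusted p = 0.0040). Gclm, Slc7a11 and Gsta4 kept their calls in all 12 omissions of a mouse. Prdx6 ran from 899 to 1138 CPM (median 1039) against 689 to 931 CPM (median 738) and rose by 0.38 ± 0.11 (edgeR adjusted p = 0.0176), a call lost without FGF1 mouse 7 (0.0504). The other members missed the threshold in merged astrocytes, among them Txnrd1 at 0.55 ± 0.25 (edgeR adjusted p = 0.16), Srxn1 at -0.47 (0.23), Nqo1 at 0.23 (0.46) and Gclc at -0.02. The members' median was 0.14, against -0.02 over all genes.

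These merged values span clusters that the groups filled differently, since vehicle astrocytes lay mostly in cluster 1 and FGF1 astrocytes mostly in cluster 4. In vehicle mice Gclm was 53.3 ± 7.3 CPM in cluster 1 and 82.4 ± 18.6 CPM in cluster 4. Within the clusters Gclm changed by -0.06 and 0.41 (edgeR adjusted p = 0.99 and 0.54), Slc7a11 by 0.26 and 0.53 (0.55 and 0.057), Prdx6 by 0.19 and 0.20 (0.67 and 0.66) and Gsta4 by -0.32 and -0.35 (0.52 and 0.64), in clusters 1 and 4 respectively. None of the 4 genes was called within either cluster. Both clusters met 6 of 6 astrocyte markers, and Gfap and Serpina3n led the genes that set cluster 4 apart. In the merged astrocytes tanycyte markers summed to 119 to 279 CPM after FGF1 against 82 to 119 CPM (4 of 6 tested higher) and neuron markers to 91 to 180 CPM against 184 to 469 CPM (4 of 4 lower). Markers of committed oligodendrocyte precursors summed to 154 to 217 CPM against 92.1 to 121 CPM (2 of 2 higher, Gpr17 and Fyn), and ependymal markers to 250.3 to 395 CPM against 195 to 363 CPM (2 of 3 higher). Of the astrocyte markers Slc1a2 and Aqp4 were higher (2 of 6, at 9117 to 10719 CPM in sum against 7996 to 9438 CPM), and of the oligodendrocyte markers Ermn was lower (1 of 5). Their part was not tested.

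Gsta4 was also lower in merged oligodendrocytes, at 19.9 to 36.2 CPM (median 28.9) after FGF1 against 35.2 to 56.0 CPM (median 50.7). The groups overlapped slightly, and the level fell by 0.75 ± 0.16 (edgeR adjusted p = 0.012), where 2.25% of all genes were called. Without vehicle mouse 20 the call was lost (0.0516). Within cluster 2 alone Gsta4 stood at 28.3 to 86.7 CPM against 33.6 to 65.2 CPM (-0.29 ± 0.23, edgeR adjusted p = 0.69). In the merged sums the 6 astrocyte markers ran from 940 to 1734 CPM after FGF1 against 1485 to 2501 CPM (2 lower) and the 8 tanycyte markers from 113 to 226 CPM against 60 to 149 CPM (2 higher). Markers of committed precursors ran without overlap from 141 to 184 CPM against 103 to 117 CPM (1 of 3 tested higher, Fyn). Ependymal markers overlapped, at 108 to 200 CPM against 80.3 to 164 CPM (1 of 5 tested higher, Dynlrb2). Their part in the Gsta4 result was not tested. FGF1 mice gave 24.3% of cluster 2, 88.0% of cluster 11 and 19.0% of cluster 12.

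**Figure D5:**
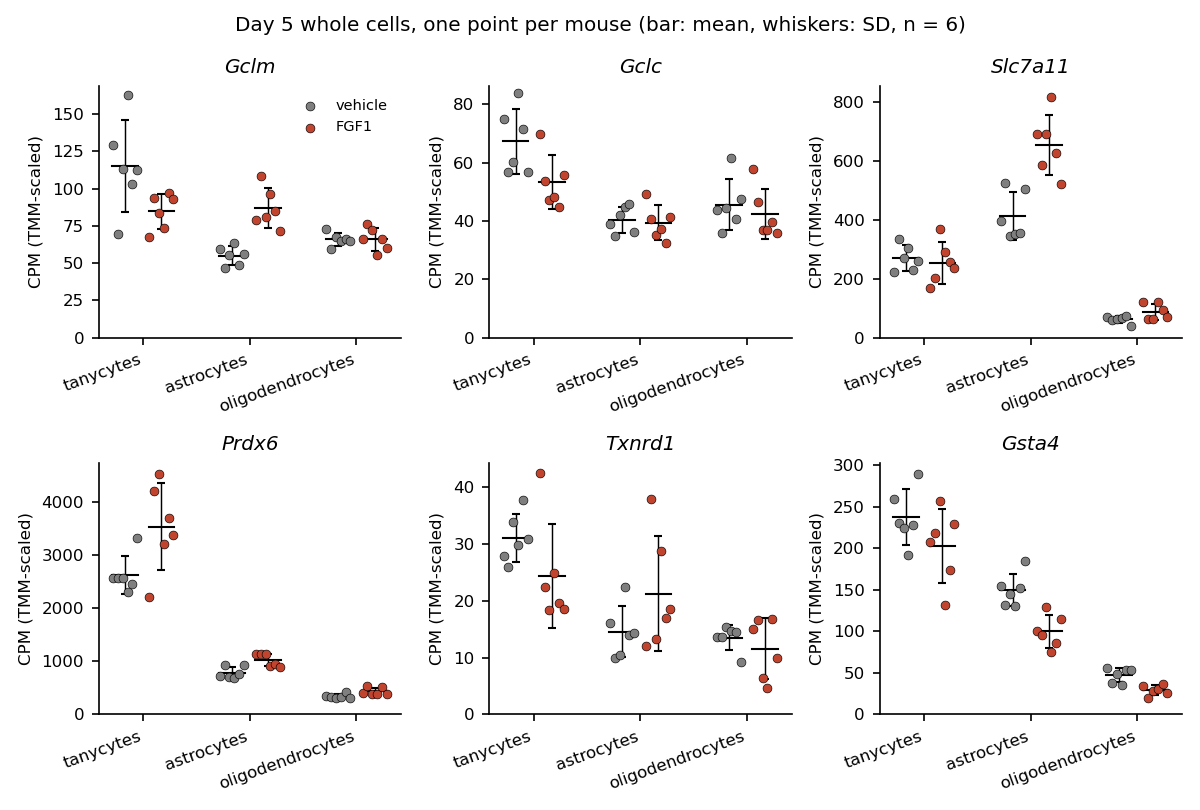
CPM of 6 genes in whole cells on Day 5 in merged tanycytes, astrocytes and oligodendrocytes, with 1 point per mouse, bars at the mean and whiskers at ± SD (n = 6 per group). In astrocytes Gclm lies at 71.2 to 108 CPM after FGF1 and 47.0 to 63.3 CPM after vehicle, and Gsta4 at 74.4 to 129.8 CPM against 130.4 to 184 CPM.

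Whether the effect on a member differed between tanycyte cluster 0, astrocyte cluster 1 and ependymal cells was tested in 27 pairs. Of these 0 were called by edgeR and 2 had an unadjusted p below 0.05. Over all genes 1.25% of 27383 tests were called, and 2916 had an unadjusted p below 0.05. The larger of the 2 member differences was Srxn1 between tanycytes and astrocytes (1.49 ± 0.53, edgeR adjusted p = 0.11).

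Among the other pathway genes in whole cells, the regulators gave 0 calls of 80 tests and the Atf4 targets 0 of 67, where 0.854% of all tests were called higher and 0.896% lower. Other Nrf2 targets gave 3 higher and 10 lower of 191, and all 10 lower calls were Gstm1, a glutathione transferase of a family whose close copies may share reads. Gstm1 fell by 0.46 to 1.07 in 10 of the 16 clusters. In tanycyte cluster 0 it ran from 421 to 631 CPM after FGF1 against 646 to 822 CPM, with no overlap (-0.47 ± 0.11, edgeR adjusted p = 0.0069), and in cluster 0, cluster 5 and cluster 10 the call held in all 12 omissions. In the other 7 clusters it was lost in 2 to 8 of the 12. The batch block lost the call in cluster 4 (edgeR adjusted p = 0.0839). The mitochondrial and ribosomal limits lost it in clusters 3 and 8 (0.0614 and 0.184), and at least 30 cells in cluster 7 (0.0825). Without the low-count filter it was lost in clusters 4, 7 and 10 (0.258, 0.488 and 0.0566). Gstm1 lies in the same family of enzymes as Gsta4, which was lower in merged astrocytes and oligodendrocytes.

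Higher in tanycyte cluster 0 was Ftl1, the ferritin light chain, at 1967 to 2710 CPM against 1419 to 1970 CPM (0.46 ± 0.10, edgeR adjusted p = 0.0064), and this call held in all 12 omissions. Txn1 was higher in tanycyte cluster 7 (0.66 ± 0.15, edgeR adjusted p = 0.014), a call lost without FGF1 mouse 10 or vehicle mouse 25 (0.0537 and 0.0628). Other peroxide, superoxide and thiol enzymes gave 5 higher and 0 lower of 160. Of these, 4 were Prdx2, a peroxiredoxin, including tanycyte cluster 0 (0.48 ± 0.12, edgeR adjusted p = 0.015) and ependymal cells (0.57 ± 0.14, edgeR adjusted p = 0.032). The first was lost without FGF1 mouse 7 (0.055), and the second without FGF1 mouse 10, 21 or 36 or vehicle mouse 20, 27 or 29 (0.0526 to 0.106).

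In merged astrocytes, where 12.6% of all genes were called, catalase (Cat) rose by 0.80 ± 0.13 (edgeR adjusted p = 0.00012) and Me1, the malic enzyme that makes NADPH, by 0.55 (0.0049). Tkt, transketolase, fell by 0.52 (0.0030) and Sod2 by 0.66 (0.0135), and these 4 calls held in all 12 omissions. Aox1, aldehyde oxidase, fell by 0.64 (0.0070) and Gstm1 by 0.39 (0.0138), and both held in all 12. The peroxiredoxin Prdx4 fell by 0.78 (0.0195), a call lost without FGF1 mouse 6 or 7 (0.0522 and 0.0601). Idh1, which makes NADPH, rose by 0.39 (0.025), and Gpx8 by 0.46 (0.040), lost in 5 and 8 of the 12 omissions (0.0505 to 0.0815 and 0.0591 to 0.103). The Nrf2 relative Nfe2l1 rose by 0.45 (0.032), a call lost without FGF1 mouse 6, 7 or 28 or vehicle mouse 20, 29 or 35 (0.0579 to 0.0827). Atf4 fell by 0.46 (0.028), lost without FGF1 mouse 7, 10, 21 or 28 or vehicle mouse 20 or 22 (0.0558 to 0.0806). Of these genes, Gstm1 was called by edgeR within astrocyte clusters 1 and 4, which the groups filled differently, and the other 10 were called in neither. Cat stood there at 0.28 ± 0.18 and 0.08 ± 0.17. In merged tanycytes Txn1 (0.51), Ftl1 (0.49), Mgst1 (0.43) and Prdx2 (0.45) were higher and Gstm1 (-0.45) and Gpx3 (-0.50) lower, and each was lost in 2 to 7 of the 12 omissions. Over all merged classes, where 4.18% of all tests were called, the regulators gave 1 higher of 61 tests, other Nrf2 targets 7 higher and 9 lower of 143, the peroxide, superoxide and thiol enzymes 6 higher and 3 lower of 114, and the Atf4 targets 1 lower of 49.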

How the data were processed

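The hypothalamus of 10 ob/ob mice (nuclei) and 12 further mice (whole cells) was profiled with the 10x Genomics 3′ v2 kit. The authors made the deposited counts, raw UMI counts per gene and barcode, with Cell Ranger 1.2 on GRCm38, per the labels, and assigned clusters with Seurat. Their SCTransform-normalized tables were not used. The deposited metadata also gave, for whole cells, mitochondrial and ribosomal UMI percentages, and, for all, a batch per mouse, with a cell type for nuclei, which was used as given. Each batch held 1 FGF1 and 1 vehicle mouse. Doublets had been removed by the authors from whole cells with Scrublet, and no doublet caller was run on nuclei. Whole-cell clusters were named where at least 3 markers were at least 2-fold over all other cells and in at least 10% of the cluster.

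For each mouse, the UMIs of all its barcodes of a type were added up. A mouse entered with at least 10 barcodes, a type with at least 2 mice per group. FGF1 and vehicle were compared without covariates by edgeR 4.0.16 (filterByExpr, TMM, robust quasi-likelihood test; R 4.3.3), two-sided, with Benjamini-Hochberg adjustment over all genes of the type and a threshold of 0.05. Interactions between cell types took the mouse as a block. CPM are TMM-scaled. The scripts were tested on simulated data first. Alternatives were DESeq2 1.42.0, RLE scaling, no low-count filter, at least 30 barcodes, barcodes within the study's limits on mitochondrial and on ribosomal UMIs (5% in nuclei, leaving 24104 of 24965, and 20% in cells, leaving 50508 of 54890), replicate and batch blocks, merged clusters and omission of each mouse. Libraries shared 318 of 24645 barcode sequences in nuclei and 1791 of 53065 in cells. A group of 660 nuclei set aside by the authors as filtered_by_sil was left out.

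The members and the 4 lists were chosen with earlier results of these data known. All members are named. Of the lists, genes called in tanycytes, ependymal cells or astrocytes were eligible, and the plan allowed at most 6 per comparison and list by size of change. In Day 5 whole cells that limit was applied to each cell type, so more of the other Nrf2 targets are named than planned. Fth1 in Day 1 vascular cells and Day 5 nuclei is also named outside the plan, after its values were seen. Genes of like pattern were the most correlated among those reaching 20 CPM in a cluster, for members with a mean of at least 20 CPM over the clusters.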

Additional observations from a re-analysis of the deposited data

Results flagged for a closer look

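In oligodendrocyte cluster 2 of whole cells, vehicle mouse 29 stood apart from the other vehicle mice in Prdx6, at 501 CPM where they ran from 331 to 388 CPM. The gap to its neighbour was 0.667 of the range of the group. Such gaps were looked for in 20 groups of mice and found in 1, and chance gives about 1 in 20. The mouse is the one that made the FGF1 and vehicle ranges of Prdx6 overlap in that cluster.

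The Day 1 effect of FGF1 on Prdx6 differed between tanycytes and astrocytes, by -2.06 ± 0.41 on the log2 scale (edgeR adjusted p = 0.0231, mouse as a block, 3 mice per group). This call was lost in 4 of the 6 omissions of a mouse (edgeR adjusted p of 0.0805 to 0.367). Prdx6 was lower in tanycytes of all 3 FGF1 mice than in those of any vehicle mouse, and the astrocyte values overlapped.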

How the results depend on the processing

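Of the summary counts, 86 alternative values lay within 1.5 times the reported count and 47 did not. For single genes 133 kept their side of the threshold, 53 lost it, and none changed direction. Counts are of calls, each a gene in a cell type. The 1 call of a member in Day 1 nuclei became 2 without the low-count filter, 0 with the batch block and 0 to 2 on leaving out a mouse. The 5 calls of pathway genes there became 3 with at least 30 nuclei, 0 within the mitochondrial and ribosomal limits, 2 with the replicate block, 1 with the batch block and 1 to 5 on leaving out a mouse. The 0 calls of members in Day 5 nuclei became 1 by DESeq2, 1 with the batch block and 0 to 2 on leaving out a mouse, and the 3 calls of pathway genes became 0 by DESeq2, 6 without the filter, 1 with at least 30 nuclei and 0 to 16 on leaving out a mouse. The 5 calls of members in Day 5 cells became 9 without the filter, 3 within those limits, 8 with the batch block and 1 to 7 on leaving out a mouse, while the 18 calls of pathway genes ranged from 8 to 23. The 5 calls of members in merged classes became 9 with the batch block and 4 to 9 on leaving out a mouse. The 1 call of a member in the Day 1 interaction between cell types ranged from 0 to 1, and those of Day 5 cells and between days stayed at 0. The cause of these changes was not tested. Where an omission left 1 mouse in a group, that mouse was assumed to vary like the other group.

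With the replicate number as a block, the calls of members in Day 1 nuclei stayed at 1. Whether the numbers paired the mice was not settled. Deviations from the group mean correlated from -0.601 to 0.643 in same-numbered mice over 18 checks, and 5 exceeded 0.1. Those of same-batch mice ran from -0.751 to 0.139, and 2 exceeded 0.1. Deviations within a group cancel out, which forces some negative values, so the check cannot decide whether mice were paired. The batch block on Day 1 and the alternatives of the merged classes were chosen after seeing the data. Members with a handful of UMIs per mouse, above all Hmox1, Nqo1, Srxn1 and Txnrd1 in nuclei, allow only large differences to be seen.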
